A study of Arabidopsis thaliana with 39 samples.

Results

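Copper excess was one of the abiotic stresses applied to Arabidopsis thaliana in a series of 39 small RNA libraries, and the 6 libraries described here are the 3 from copper-treated seedlings (Cu+) and the 3 from their controls (C). The members are all mature miRNA sequences in the deposited count table of this treatment, with 1 entry for each distinct sequence, which turned 431 miRNA names into 353 sequences. Of these, 161 had enough reads to be tested. Names that share a mature sequence share their reads and are written together, as in miR319a,b.

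All plants were Col-0 wild type. Whole seedlings of 15 days were used. The stresses were given over the last 24 h in liquid half-strength Murashige and Skoog medium. Whether the C seedlings were moved there too is not stated. For the Cu+ group 10 µM CuSO4 was added. The C seedlings had no such addition, and their 3 libraries also served as the control of the cadmium (Cd+, 10 µM CdSO4), copper deficiency (Cu-, medium without its 0.1 µM CuSO4), sulfur deficiency (S-) and salinity (NaCl+, 250 mM) treatments. Untreated seedlings of the heat experiment (H0), also of 15 days, are used for levels only. The labels give 3 biological replicates per condition. RNA was taken from entire seedlings, so a shift in the share of an organ or cell type and a shift of RNA per cell cannot be told apart.

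Copper is a cofactor of plastocyanin, of copper/zinc superoxide dismutases and of laccases, and is toxic when free in the cell. In copper-poor Arabidopsis the transcription factor SPL7 switches on miR397, miR398, miR408 and miR857, which cut the mRNAs of dispensable copper proteins: miR398 targets the copper/zinc superoxide dismutases, miR397 and miR857 target laccases, and miR408 targets plantacyanin and laccases. With ample copper these miRNAs are known to be low. A separate group, miR159 and miR319, represses GAMYB-like and TCP transcription factors and is best known from growth, flowering and leaf shape.

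The mature sequences on which the results turn are shown from 5′ to 3′ as the count table gives them, in DNA letters and with bases 2 to 8, the seed, in capitals. The first set holds the sequences that passed the test in some comparison (miR843, miR319a,b and miR394a,b-5p). It adds miR319c, miR159a and miR159b-3p as near relatives of miR319a,b, and miR173-5p, which lay below the control but was not called.
miR843: tTTAGGTCgagcttcattgga
miR319a,b: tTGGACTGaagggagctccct
miR319c: tTGGACTGaagggagctcctt
miR159a: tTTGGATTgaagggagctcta
miR159b-3p: tTTGGATTgaagggagctctt
miR394a,b-5p: tTGGCATTctgtccacctcc
miR173-5p: tTCGCTTGcagagagaaatcac

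The second set holds the copper-response miRNAs, because they are the known readout of copper supply, and shows that miR397a and miR397b share a seed.
miR397a: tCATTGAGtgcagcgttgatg
miR397b: tCATTGAGtgcatcgttgatg
miR398b-3p,c-3p: tGTGTTCTcaggtcacccctg
miR408-3p: aTGCACTGcctcttccctggc
miR408-5p: aCAGGGAAcaagcagagcatg
miR857: tTTTGTATgttgaaggtgtat

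Each was placed by exact match in the TAIR10.1 genome. The miR843 sequence lies in its miRNA gene MIR843 at chr3:17742147-17742167 on the plus strand. The miR319a,b sequence has 2 loci, in MIR319a at chr4:12353109-12353129 (plus) and in MIR319b at chr5:16660469-16660489 (minus), and reads cannot be assigned to 1 of them. The miR394a,b-5p sequence likewise has 2 loci, in MIR394a at chr1:7058207-7058226 and in MIR394b at chr1:28568821-28568840, both on the plus strand. Both miR408 strands lie inside MIR408 at chr2:19319866-19319953 (plus), which overlaps the protein-coding gene AT2G47020. The miR397a sequence at chr4:2625960-2625980 (plus) lies in MIR397a, which overlaps ENT6.

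Library sizes were close. The Cu+ libraries held 4295785 to 4436527 miRNA reads and the C libraries 3912553 to 4299489, and 98.2 to 99.0% of all reads mapped to the genome. The miRNA share of mapped reads was 42.8, 41.6 and 41.7% in Cu+ libraries, against 41.2, 36.9 and 40.3% in C libraries, without overlap. The difference of 2.54 percentage points had a two-sided exact permutation p of 0.1, the smallest that 3 against 3 libraries allow, and was 1.24 points without C replicate 2. RNA integrity numbers were also separated, at 9.0 to 9.2 in Cu+ samples and 8.4 to 8.9 in C samples (exact permutation p = 0.1). RNA integrity therefore moved with the groups, and its part in the differences below was not tested.

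Few mature miRNAs were called different under copper excess. With edgeR's quasi-likelihood test at an adjusted p under 0.05, 2 of 161 sequences (1.24%) were called higher in Cu+ than in C and 0 (0%) lower, miR843 and miR319a,b being those that rose. With Cu+ and C paired by replicate number, which their deviations point to, 0 were called. At an unadjusted p under 0.05, 11 sequences (6.83%) were higher and 9 (5.59%) lower. Levels are given as CPM, the reads of a sequence for each 1000000 miRNA reads of its library. The CPM of the 3 Cu+ libraries all lay above those of the 3 C libraries for 11 sequences (6.83%), and all below for 22 (13.7%). The median log2 fold change over the tested sequences was -0.01, with 78 above 0 and 83 below, and the median standard error (SE) was 0.21. DESeq2 called 6 higher and 0 lower, adding miR394a,b-5p, miR159b-3p, miR841a-3p and miR396a-3p. The F test used in the study, run on CPM without adjustment, called 9 of the 287 sequences with reads higher and 14 lower.

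**Figure D1:**
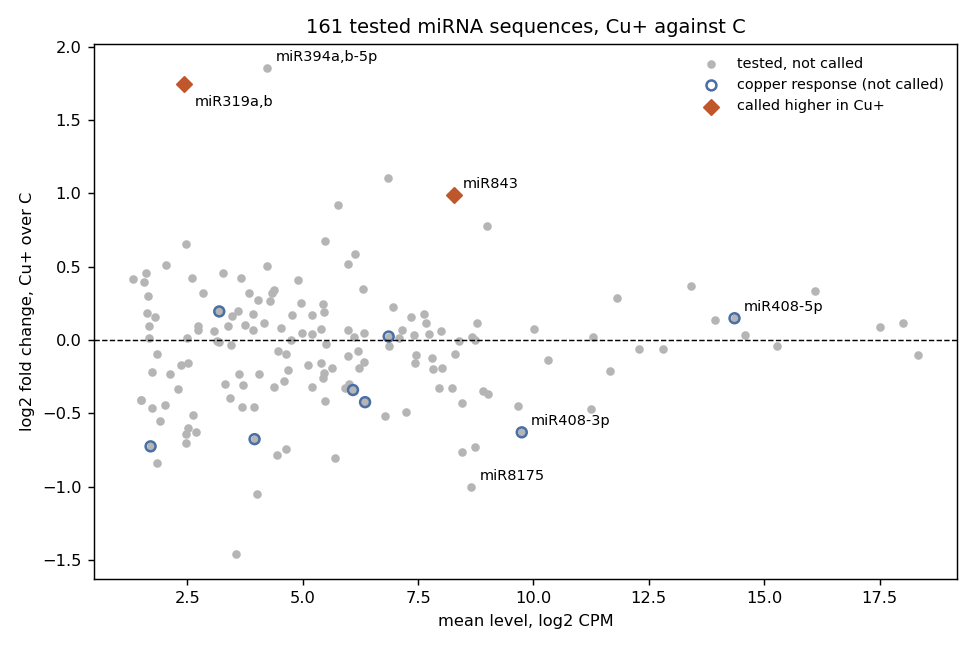
The mean level in log2 CPM (x axis) and the log2 fold change of Cu+ over C (y axis) of the 161 tested sequences, 1 point each. Diamonds are the 2 sequences called higher, and open circles are the 8 tested copper-response sequences, which run between -0.72 and 0.19 and of which 0 were called.

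The change with the smallest p was that of miR843, a miRNA to which no role is assigned here. It had 447, 340 and 432 CPM in the Cu+ libraries, against 190, 225 and 217 CPM in the C libraries. Every Cu+ library stood above every C library, and the log2 fold change was 0.99 (edgeR adjusted p = 0.0236, SE 0.14). The sequence was read 816 to 1983 times per library, so counting error was small beside the spread between replicates. The call was lost when Cu+ replicate 3 (adjusted p = 0.134) or C replicate 1 (0.226), 2 (0.0822) or 3 (0.117) was left out. It was also lost in the fit that paired Cu+ and C by replicate number (0.0552) and with total miRNA counts as scaling (0.0546). The adjusted p ran between 2.05e-06 and 0.226 over 13 alternatives, while the log2 fold change stayed between 0.87 and 1.09.

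The other change was that of miR319a,b, which represses TCP transcription factors. It had 9.69, 5.32 and 7.22 CPM in Cu+ libraries, against 2.09, 2.81 and 1.89 CPM in C libraries. These values came from only 43, 23 and 31 reads in Cu+ libraries and 9, 11 and 8 reads in C libraries, without overlap. The log2 fold change was 1.75 (edgeR adjusted p = 0.0489, SE 0.31). This call did not survive leaving out Cu+ replicate 1 (adjusted p = 0.108) or 3 (0.134), or C replicate 1 (0.226), 2 (0.0974) or 3 (0.165). Pairing by replicate number (0.0687) and scaling by total miRNA counts (0.0714) ended it as well. Over 13 alternatives the adjusted p ran between 0.00859 and 0.226 and the log2 fold change between 1.52 and 1.92.

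The miR159 family, whose sequences resemble miR319, lay on the same side. For miR159b-3p the Cu+ libraries had 232, 117 and 115 CPM, against 64.7, 101 and 57.3 CPM in C libraries. The groups did not overlap, but Cu+ replicate 1 stood well above the other two, and the log2 fold change of 1.10 (SE 0.31) was not called (adjusted p = 0.179 by edgeR). For miR159a, the most read of the family, the values were 880, 484 and 539 CPM in Cu+ libraries and 345, 479 and 319.3 CPM in C libraries. Here too Cu+ replicate 1 was the highest, and the gap between the lowest Cu+ and the highest C library was narrow (log2 fold change 0.78, SE 0.24, adjusted p = 0.187). Of the 6 sequences of the miR159 and miR319 list, 3 were tested, all 3 were above 0, and 1 was called, beside 2 (1.24%) of all 161 tested sequences. None of the 3 overlapped, where 11 of 161 (6.83%) were higher without overlap. Their median log2 fold change was 1.10, against -0.01 over all tested sequences. The read filter shaped these counts and this median. It admitted miR319a,b through its Cu+ libraries (43, 23 and 31 reads), as its C libraries had only 9, 11 and 8 reads. Members with few reads in both groups were left out, so the list as a whole was not tested. The untested members were miR319c with 3, 6 and 2 reads in Cu+ libraries against 3, 8 and 4 in C libraries, miR159c with at most 3 reads in a library, and miR159b-5p with 0 reads in all 6.

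The family members are close in sequence. The miR159a and miR159b-3p sequences agree at 20 of 21 bases and share a seed, miR319a,b and miR319c agree at 20 of 21, and miR159a and miR319a,b agree at 17 of 20 bases when set off by 1. The authors also matched reads after trimming them at both ends, so the split of reads among such relatives is uncertain. A set of second duplexes from the same miR319 hairpins gave a different picture. The miR319a.2 sequence had 46.0, 41.6 and 50.0 CPM in Cu+ libraries, against 45.1, 38.3 and 35.8 CPM in C libraries, which overlap. All 3 second duplex sequences had log2 fold changes above 0 but none was called, the values being 0.25 for miR319a.2 (95% interval -0.13 to 0.62), 0.11 for miR319b.2 (-0.23 to 0.46) and 0.07 for miR319c.2 (-0.27 to 0.41).

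Next in order of p came sequences that did not pass the test. The F-box regulator miR394a,b-5p, which targets LCR, had 30.9, 27.3 and 25.8 CPM in Cu+ libraries, against 11.2, 2.81 and 9.43 CPM in C libraries. Its groups lay far apart, with a log2 fold change of 1.85 (SE 0.42) that was larger than that of either called sequence, but C replicate 2 was low and the adjusted p was 0.110 by edgeR. Without C replicate 2 it was called (log2 fold change 1.44, adjusted p = 0.0345), as it was by DESeq2 (0.00160), and the adjusted p ran between 0.00160 and 0.251 over 13 alternatives. Both sequences named miR841a lay above the control without overlap. The miR841a-3p sequence has 2 loci, in MIR841a at chr4:7885296-7885316 (minus) and in MIR841b at chr4:2184422-2184442 (plus), so its reads cannot be given to 1 hairpin. It had 51.2, 56.2 and 54.0 CPM in Cu+ libraries, against 34.9, 30.9 and 37.7 CPM in C libraries (log2 fold change 0.68, SE 0.16, adjusted p = 0.110), and miR841a-5p, with 1 locus in MIR841a, gave 0.41 on the same scale (adjusted p = 0.298, SE 0.15). The miR396a-3p strand, which lies opposite the strand that regulates growth-regulating factors, had 46.0, 71.9 and 89.6 CPM in Cu+ libraries, against 40.0, 32.5 and 40.3 CPM in C libraries. The Cu+ libraries were widely spread (log2 fold change 0.92, SE 0.27, adjusted p = 0.187).

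**Figure D2:**
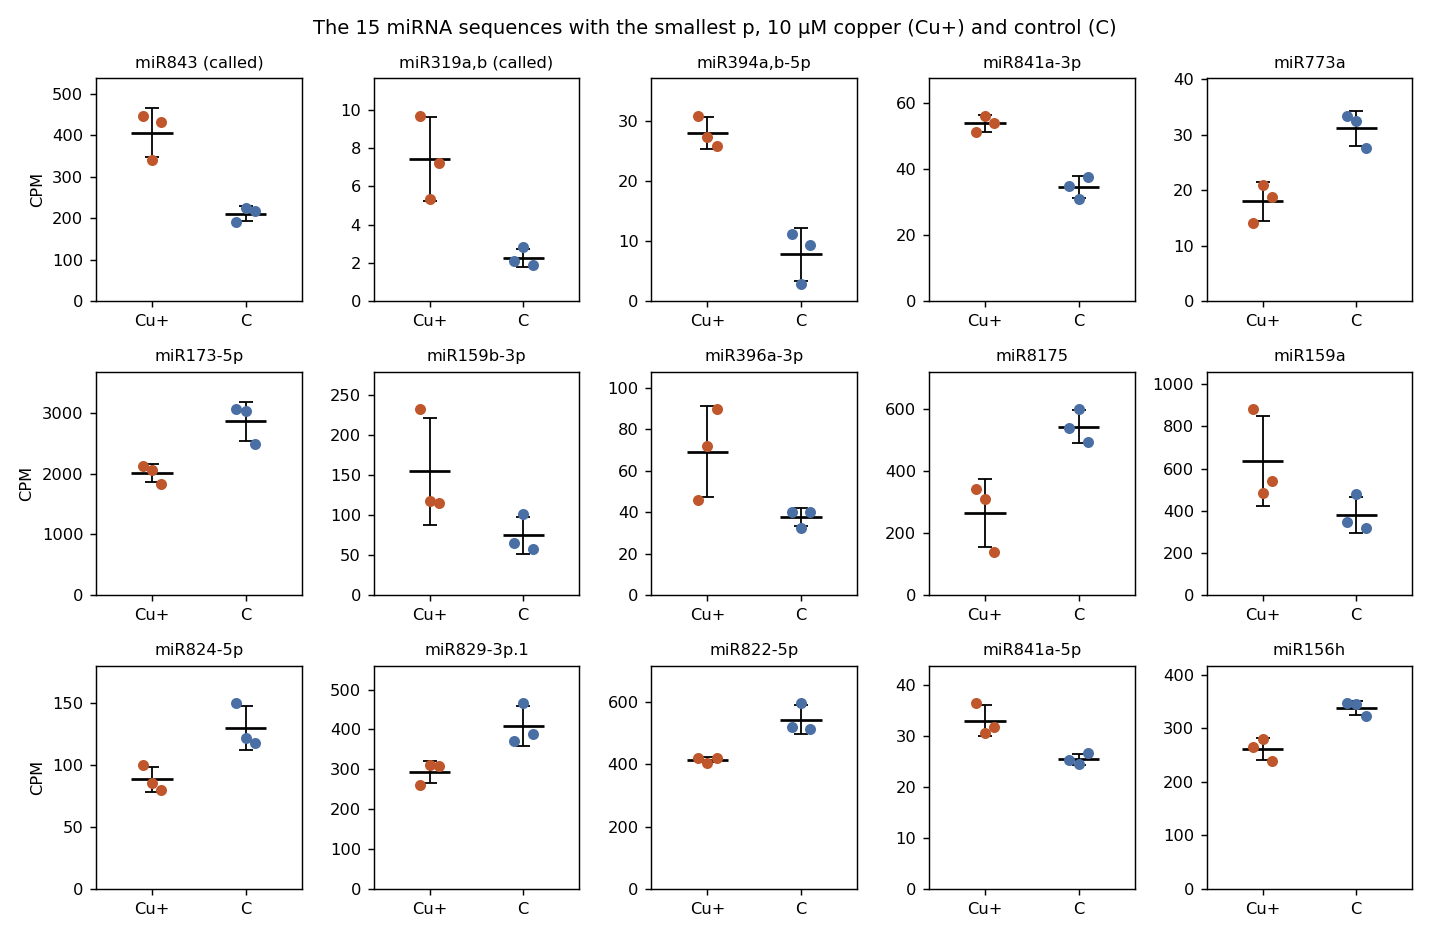
CPM (y axis, from 0, a scale of its own in each panel) of the 15 sequences with the smallest p in the 3 Cu+ libraries (left, orange) and the 3 C libraries (right, blue), with horizontal bars at the mean and error bars of 1 SD. In all 15 panels the groups do not overlap, and only miR843 (340 to 447 CPM in Cu+, 190 to 225 CPM in C) and miR319a,b (5.32 to 9.69 CPM in Cu+, 1.89 to 2.81 CPM in C) were called. Choosing by p favours separated groups. Of all 161 tested sequences, 11 (6.83%) were higher and 22 (13.7%) lower without overlap.

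On the lower side, 7 of the 15 sequences with the smallest p lay below the control without overlap, and 0 of them were called. The 15 were picked by p in this same comparison, which favours separated groups. Over all 161 tested sequences, 22 (13.7%) were lower without overlap. The best read of the 7 was miR173-5p, which starts the production of trans-acting siRNAs from the TAS1 and TAS2 transcripts. It had 2134, 2056 and 1839 CPM in Cu+ libraries, against 3062, 3030 and 2498 CPM in C libraries. The difference was small but even, with a log2 fold change of -0.47 (edgeR adjusted p = 0.177, SE 0.13). Of the 15 seedling libraries outside Cu+ and C, which include the untreated H0 ones, 12 also lay below all 3 C libraries for miR173-5p. For miR773a, known to target a DNA methyltransferase mRNA, the values were 14.2, 21.03 and 18.9 CPM in Cu+ libraries and 33.5, 32.5 and 27.6 CPM in C libraries (log2 fold change -0.74, SE 0.20, adjusted p = 0.177). The largest difference of the 7 was that of miR8175, at 344, 309 and 139 CPM in Cu+ libraries against 539, 600 and 494 CPM in C libraries, where Cu+ replicate 3 was the lowest (log2 fold change -1.002, SE 0.30, adjusted p = 0.187). The miR8175 sequence also has 2 loci, 1 in MIR8175 at chr2:3740938-3740957 and 1 within AT3G44580 at chr3:16161749-16161768. The other 4 were miR824-5p, a regulator of AGL16, miR829-3p.1, miR822-5p and miR156h, with log2 fold changes between -0.52 and -0.33 and adjusted p between 0.187 and 0.317.

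Of the 9 copper-response sequences 8 were tested and 0 were called, a count that says little of this list where 1.24% of all sequences were called. Of the 8, 3 were above 0 and 5 below, and the median log2 fold change was -0.38, against -0.01 over all tested sequences. The superoxide dismutase regulator miR398b-3p,c-3p had 2.25, 2.08 and 1.86 CPM in Cu+ libraries, against 2.79, 5.62 and 2.36 CPM in C libraries. The groups did not overlap, but these were only 10, 9 and 8 reads in Cu+ libraries and 12, 22 and 10 reads in C libraries, and the log2 fold change of -0.72 had a 95% interval of -1.62 to 0.17 (adjusted p = 0.445 by edgeR). This sequence passed the read filter only through its C libraries, so the filter shaped the count below 0 and the median of the list. Its opposite strand, miR398b-5p,c-5p, had 10.8, 5.55 and 17.9 CPM in Cu+ libraries, against 14.0, 22.0 and 20.7 CPM in C libraries. These groups overlapped (log2 fold change -0.68, 95% interval -1.58 to 0.23). The miR398a-3p sequence was at the limit of detection, with 0, 1 and 1 reads in Cu+ libraries and 0 in each C library, and was not tested. Its opposite strand miR398a-5p gave 0.19 (-0.30 to 0.69) from 30 to 45 reads per library.

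The most read of the list was the miR408 hairpin, and its strands had unlike values. For miR408-3p, the strand known to act on plantacyanin and laccase mRNAs, the Cu+ libraries had 788, 588 and 622 CPM, against 968, 1714 and 546 CPM in C libraries. C replicate 2 stood far above the other C libraries, the groups overlapped, and the log2 fold change was -0.63 (95% interval -1.43 to 0.17, adjusted p = 0.464). The opposite strand, miR408-5p, had 23451, 18792 and 23061 CPM in Cu+ libraries, against 18893, 22939 and 18962 CPM in C libraries (log2 fold change 0.15, 95% interval -0.13 to 0.42). The log2 ratio of the 5p to the 3p strand was 5.04 ± 0.16 in Cu+ libraries and 4.38 ± 0.69 in C libraries (SD, n = 3 each). The groups overlapped (two-sided exact permutation p = 0.3, where 3 against 3 libraries cannot go below 0.1). Among the laccase regulators, miR397a had 55.7, 55.7 and 64.9 CPM in Cu+ libraries, against 55.1, 78.2 and 96.9 CPM in C libraries, and miR397b gave a log2 fold change of -0.42 (95% interval -0.91 to 0.06). The third, miR857, gave 0.02 (-0.42 to 0.46). For miR398b-3p,c-3p, miR398b-5p,c-5p and miR408-3p the intervals reach below -1 and include 0, so a difference of that size was neither shown nor excluded.

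**Figure D3:**
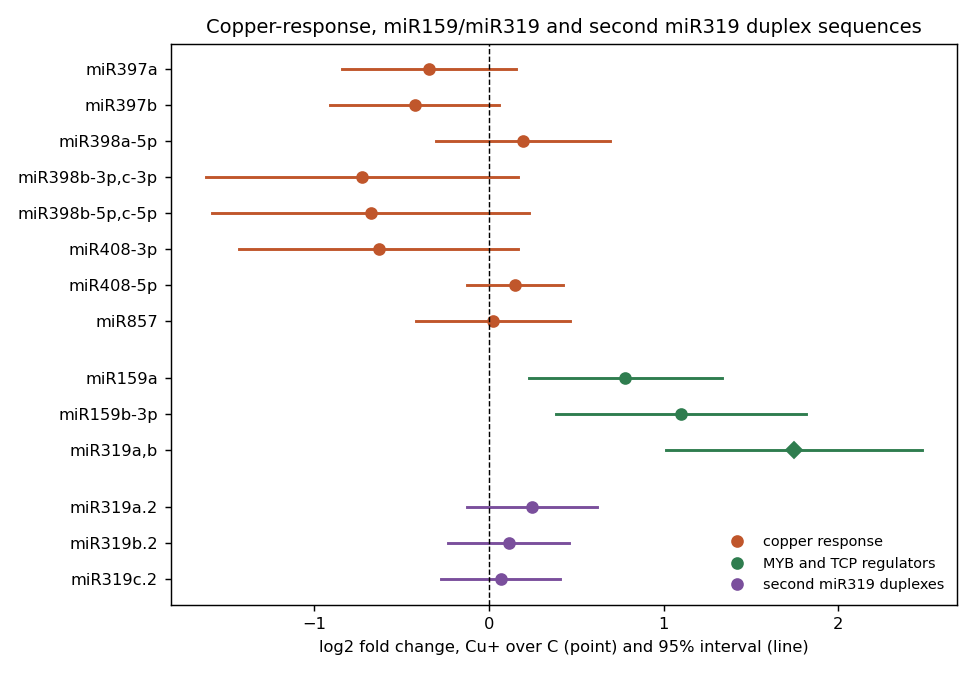
The log2 fold change of Cu+ over C (point) and its 95% interval (line) for the tested copper-response (orange), miR159 and miR319 (green) and second miR319 duplex (purple) sequences, with the called sequence as a diamond. All 8 copper-response intervals include 0, while those of miR159a (0.23 to 1.33), miR159b-3p (0.39 to 1.82) and miR319a,b (1.02 to 2.48) lie above 0.

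The remaining lists, written from miRNA family numbers, held 0 calls, beside 1.24% over all sequences. They count both strands of a hairpin, including strands not known to act on the named targets. Among regulators of development, all 5 sequences of miR165 and miR166, which restrict the HD-ZIP III factors of leaf polarity, were above 0, with a median log2 fold change of 0.15. The best of them was miR165a-3p,b at 14228, 10161 and 12057 CPM in Cu+ libraries, against 9220, 8997 and 10675 CPM in C libraries, with overlap (log2 fold change 0.37, SE 0.15, adjusted p = 0.372). All 5 tested sequences of miR169, which targets NF-YA subunits, were below 0, with a median of -0.33, and 3 of them did not overlap, against 22 of all 161 (13.7%) lower without overlap. The miR169d,e,f-5p,g-5p sequence had 63.6, 53.4 and 52.8 CPM in Cu+ libraries, against 70.9, 80.0 and 65.0 CPM in C libraries (log2 fold change -0.30, SE 0.13, adjusted p = 0.384). The SPL regulators miR156 and miR157 had 9 of 12 tested sequences below 0, with a median of -0.13. The miR160a-3p strand, from the auxin signalling list, had 178, 374 and 387 CPM in Cu+ libraries, against 407, 657 and 556 CPM in C libraries, with Cu+ replicate 1 the lowest (log2 fold change -0.73, SE 0.31, adjusted p = 0.384). For the whole auxin list, 9 of 13 were below 0, with a median of -0.16.

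Among the triggers of trans-acting siRNAs, 4 of 4 tested sequences were below 0, with a median of -0.38, miR173-5p being the one with the smallest p. This list shares its miR390 sequences with the auxin list. For the miR396 list, 3 of 4 were above 0 with a median of 0.41. The 5p strands, which regulate growth-regulating factors, gave -0.04 (miR396a-5p) and 0.22 (miR396b-5p). The opposite strands gave 0.92 (miR396a-3p) and 0.59 (miR396b-3p). Of the lists tied to mineral nutrition, the phosphate response (miR399, miR827 and miR2111 among the tested) had 4 of 5 above 0 with a median of 0.25, and the sulfate-responsive miR395 had 1 above and 1 below. The miR395b,c,f sequence had 3.83, 3.00 and 4.89 CPM in Cu+ libraries, against 3.72, 3.07 and 11.8 CPM in C libraries, of which C replicate 3 stood out. The lists of miR172 (AP2 factors), miR171 (HAM), miR164 (NAC) and the miRNA machinery (miR162, miR168, miR403) had medians between -0.12 and 0.03. The regulators of pentatricopeptide repeat and NB-LRR genes (miR161, miR400, miR472, miR825) had 4 of 6 above 0 and a median of 0.07. The flavonoid MYB regulators miR828 and miR858 had too few reads to be tested.

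The composition of the libraries was alike. The 8 most read sequences took 94.9 to 95.1% of miRNA reads in Cu+ libraries and 94.5 to 95.4% in C libraries, led by miR157a-5p,b-5p,c-5p, miR156a-5p,b-5p,c-5p,d-5p,e,f-5p and miR167a-5p,b, with log2 fold changes of -0.10, 0.12 and 0.09. Of 353 sequences, 216 had reads in all 6 libraries and 66 in none of them, and 126 with reads were too low for the test, with at most 18 reads in a library. No sequence with 5 or more reads was found in all 3 libraries of one group and in none of the other. The tested sequences held 99.99% of the reads.

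Of 9 read shares by length, first base and strand, 0 passed an adjusted p of 0.05, which 3 against 3 libraries cannot reach. The share of 22-nt sequences, most of it miR173-5p, was 0.308, 0.309 and 0.285% in Cu+ libraries, against 0.411, 0.409 and 0.341% in C libraries, without overlap (exact permutation p = 0.1, adjusted 0.45). The share of sequences of 23 nt or longer was also separated, at 0.0506, 0.0640 and 0.0602% in Cu+ libraries, against 0.0659, 0.0801 and 0.0676% in C libraries (exact permutation p = 0.1, adjusted 0.45). Shares of 21-nt sequences (68.7% ± 2.7 in Cu+ and 69.8% ± 1.5 in C, SD, n = 3 each) and of sequences that start with T (96.0% ± 0.16 in Cu+ and 95.9% ± 0.51 in C) overlapped. Both strands were tested in 38 pairs of 5p and 3p sequences, which share strands with each other, miR156a-5p,b-5p,c-5p,d-5p,e,f-5p being in 5 of them. In 22 pairs both log2 fold changes had the same sign, 9 above 0 and 13 below. The 5p to 3p ratio was separated between the groups in 1 pair, that of miR172b-5p,e-5p, which is shared by 2 hairpins, over miR172e-3p, with a log2 ratio of 2.36 ± 0.93 in Cu+ libraries and 3.35 ± 0.28 in C libraries (exact permutation p = 0.1).

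Copper excess was then set directly against copper deficiency, with no use of the C libraries. Of 166 tested sequences 0 (0%) were called by edgeR, with a smallest adjusted p of 0.149, while 19 were higher and 8 lower in Cu+ at an unadjusted p under 0.05. DESeq2 called 2, miR169b-3p and miR390a-5p,b-5p, and the F test on CPM called 30 of 293. Of the 8 tested copper-response miRNAs, 4 were above 0 and 4 below in Cu+ against Cu-, beside 85 of all 166 above 0. Among the 166, 23 were higher in Cu+ without overlap and 17 lower. For miR408-3p the values were 788, 588 and 622 CPM in Cu+ libraries, against 1068, 888 and 1264 CPM in Cu- libraries. All Cu+ libraries lay below all Cu- libraries, with a log2 fold change of -0.63 (95% interval -1.06 to -0.19, adjusted p = 0.172 by edgeR). The same order held for miR398b-3p,c-3p at 2.25, 2.08 and 1.86 CPM in Cu+ libraries, against 4.50, 2.70 and 4.62 CPM in Cu- libraries (log2 fold change -0.86, 95% interval -1.61 to -0.11, adjusted p = 0.225). Here it passed the read filter only through its Cu- libraries. The laccase regulator miR857 lay the other way, at 131, 94.3 and 121 CPM in Cu+ libraries against 91.7, 75.2 and 87.9 CPM in Cu- libraries (log2 fold change 0.51, 95% interval 0.10 to 0.91, adjusted p = 0.225). For miR397a the groups overlapped (log2 fold change 0.02, 95% interval -0.51 to 0.55). The other 4 gave 0.48 for miR398a-5p (-0.06 to 1.01), 0.35 for miR397b (-0.09 to 0.79), -0.22 for miR408-5p (-0.55 to 0.11) and -0.71 for miR398b-5p,c-5p (-1.76 to 0.34) on the log2 scale, and 1 of them, miR408-5p, was without overlap. The tasiRNA trigger miR390a-5p,b-5p, chosen here after its values were seen, had 2803, 3321 and 2706 CPM in Cu+ libraries, against 7840, 3493 and 7577 CPM in Cu- libraries (log2 fold change -1.03, SE 0.29, adjusted p = 0.172 by edgeR). Without Cu- replicate 2, the lowest of its group, it was called, as 1 of 2 sequences.

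Copper and cadmium were given at the same dose and for the same time. Of 162 tested sequences 1 (0.617%) was called, miR394a,b-5p, with 14 higher and 11 lower in Cu+ at an unadjusted p under 0.05. It had 30.9, 27.3 and 25.8 CPM in Cu+ libraries, against 13.4, 14.0 and 10.4 CPM in Cd+ libraries. The groups were tight and far apart, with a log2 fold change of 1.13 (edgeR adjusted p = 0.0229, SE 0.19). The call ended without Cu+ replicate 1 (adjusted p = 0.113) or Cd+ replicate 1 (0.185), 2 (0.0525) or 3 (0.283), and in the joint fit of 18 libraries (0.471). With the replicate number as a block the adjusted p was 0.0811, and over 13 alternatives it ran between 0.00241 and 0.471. For miR843, with 296, 309 and 287 CPM in Cd+ libraries, the log2 fold change of Cu+ over Cd+ was 0.43 (SE 0.16, adjusted p = 0.212). For miR319a,b it was 0.03 (95% interval -0.61 to 0.66).

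The levels of these miRNAs over all 21 seedling libraries show where both groups lay. No sequence had its 3 Cu+ libraries above or below all 18 other libraries, and 1 had its 3 C libraries above all others, miR169a-5p. For miR843 the group means were 406 ± 58.1 CPM in Cu+, 337 ± 48.7 in Cu-, 298 ± 11.3 in Cd+, 253 ± 65.7 in S-, 330 ± 57.3 in NaCl+, 148 ± 91.7 in the untreated seedlings of the heat experiment (H0) and 211 ± 18.5 in C (SD, n = 3 each). Cu+ was the highest of the 7 and H0 and C the lowest, with overlap of Cu+ libraries with Cu- and NaCl+ libraries. The log2 fold change of miR843 in Cu+ over Cu- was 0.33 (95% interval -0.06 to 0.73, edgeR adjusted p = 0.322). For miR319a,b the means were 7.41 ± 2.19 CPM in Cu+, 5.34 ± 1.37 in Cu-, 7.11 ± 1.38 in Cd+, 3.82 ± 1.14 in S-, 10.7 ± 0.32 in NaCl+, 6.36 ± 0.90 in H0 and 2.26 ± 0.49 in C. Here C was the lowest group, and 14 of the 15 libraries outside Cu+ and C lay above all 3 C libraries, those of the untreated H0 seedlings among them. The same count of 14 of 15 held for miR159b-3p and miR396a-3p. For miR394a,b-5p, Cu+ had the highest mean and the smallest spread relative to it, at 28.0 ± 2.6 CPM. The means were 18.3 ± 10.5 CPM in Cu-, 12.6 ± 1.93 in Cd+, 12.6 ± 9.95 in S- and 21.3 ± 19.4 in NaCl+, and H0 (7.91 ± 4.72) and C (7.80 ± 4.41) were alike. Cu+ libraries overlapped with Cu- libraries, and 1 NaCl+ library, at 42.2 CPM, lay above all Cu+ libraries. For miR8175, 11 of the 15 lay below all 3 C libraries. So did 12 for miR173-5p and miR824-5p, 11 for miR829-3p.1 and miR822-5p, 10 for miR773a and 9 for miR156h. These comparisons share the C libraries, and the H0 seedlings belonged to the heat experiment on plates, so no test was made between the untreated groups.

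**Figure D4:**
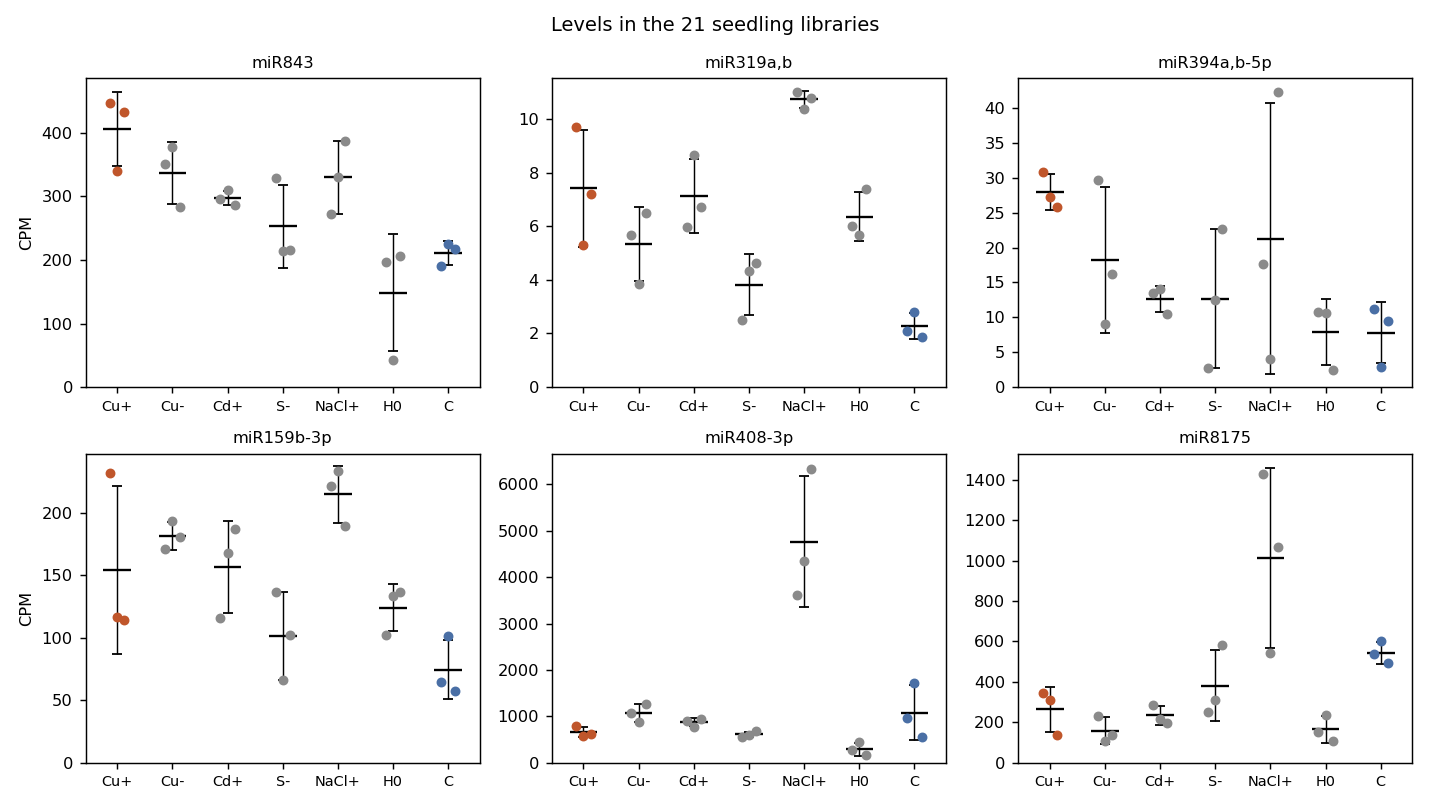
CPM (y axis, from 0, a scale of its own in each panel) of 6 sequences in the 3 libraries of each seedling group, Cu+ in orange, C in blue and the other groups in grey, with the mean (bar) and 1 SD (error bars). Cu+ has the highest mean for miR843 (406 CPM) and miR394a,b-5p (28.0 CPM), while for miR319a,b and miR159b-3p C has the lowest mean (2.26 and 74.4 CPM).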

How the data were processed

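Small RNA libraries of 3 Cu+ and 3 C samples were analysed, with Cu-, Cd+, NaCl+, S- and H0 libraries (21 in all) for levels. The deposited counts were made by the authors from reads that matched a mature miRNA in miRBase, either as sequenced or once both ends had been trimmed. The authors mapped all reads to the TAIR10 genome with Bowtie 1.0.0 and deposited the percent mapped per library. The deposited RNA integrity score was measured by the authors with an Agilent Nano kit. Authors' columns of CPM means, fold changes and p-values were not used.

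Counts, 1 row per distinct sequence, were filtered with filterByExpr (minimum count 10), scaled by TMM and compared with edgeR 4.0.16 (R 4.3.3, limma 3.58.1) by its quasi-likelihood test with Benjamini-Hochberg adjustment over all tested sequences, called at an adjusted p under 0.05. Every adjusted p of single miRNAs in the text is edgeR's unless another tool is named. Intervals are at 95%. DESeq2 1.42.0, other scalings, no filter, the F test on CPM, a joint fit of 18 libraries, a replicate block and leaving out each library were alternatives. Library values were compared by exact permutation (scipy 1.17.1). Counting error covers reads, not molecules.

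Same-numbered Cu+ and C libraries deviated together (r = 0.24, 0.33 and 0.19 over sequences), so pairing by number was run as an alternative. The main fits and the permutation tests were unpaired. The pairing rests on weak correlations in these data, as the labels give only the numbers. The numbers did not pair Cu+ with Cu- or Cd+ (r between -0.53 and 0.07). No library pair had identical counts.

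Members and lists were chosen with earlier results of these data known. Named miRNAs are those called, the 15 with the smallest p, those without overlap and a log2 fold change of 1 or more in size, all of the copper-response, miR159 and miR319 and second duplex lists, the 8 most read, and the smallest p of each other list. Of 47 so chosen 43 were tested.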

Additional observations from a re-analysis of the deposited data

How the results depend on the processing

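The number of miRNAs called in Cu+ against C, 2 higher and 0 lower, was kept by RLE scaling, genome-mapped reads as scaling, no read filter and the joint fit. It was 0 with total miRNA counts as scaling and 0 with the replicate block, 6 (all higher) with DESeq2, and 23 (9 higher and 14 lower) with the unadjusted F test. Leaving out 1 library gave 0 to 2 calls, all higher: 0 without Cu+ replicate 3, C replicate 1 or C replicate 3, 1 (miR394a,b-5p) without C replicate 2, and 2 otherwise, which without Cu+ replicate 1 were miR843 and miR396a-3p. For Cu+ against Cu-, 0 calls became 2 with DESeq2 and 30 with the F test, stayed 0 with the replicate block, and ran between 0 and 2 when 1 library was left out. For Cu+ against Cd+, 1 call became 2 with genome-mapped reads as scaling, which moved the median log2 fold change by 0.12, and 33 with the F test. It became 0 in the joint fit and 0 with the replicate block, and ran between 0 and 4 when 1 library was left out, with 4 without Cu+ replicate 2. The miRNA share of mapped reads differed by 1.24 to 3.41 percentage points when 1 library was left out. Except for the scaling by genome-mapped reads against Cd+, the scalings moved the median by at most 0.09 after rounding. The causes of these differences were not tested, though the block and the left-out libraries leave fewer residual degrees of freedom. With 3 libraries a group and under 20 reads for many sequences, small changes of low miRNAs were out of reach.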
